A study of Mus musculus with 10 samples.

Results

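A set of 43 genes of tumor-associated macrophages was followed among the 17864 genes of a whole-tumor RNA-seq table. The genes were chosen by name rather than by a measured value, but with earlier results of these data known. They cover 9 lineage and shared genes, 4 Fc receptors, 11 genes of resident macrophages, 6 of lipid-associated macrophages, 6 of innate sensing and scavenging, 5 of monocyte-derived cells, and the fractalkine ligand and receptor pair. All 43 were found in the table, and 41 passed the filter on low counts. The scavenger receptor genes Vsig4 and Marco did not, with at most 20 counts of Vsig4 and 52 counts of Marco in any tumor.

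The tumors grew from 4T1, a mouse mammary carcinoma line of BALB/c origin that serves as a model of triple-negative breast cancer. Both groups of cells had received Cas9 and a guide RNA by lentivirus, either a control guide (sgCon) or a guide against Wwtr1, the gene that encodes the Hippo pathway coactivator TAZ (sgTaz). The cells were placed in the mammary fat pads of young female mice, BALB/c or SCID according to the methods, while the host of the sequenced tumors is not named in the labels. RNA of 5 whole tumors per group was sequenced, so that the samples held edited tumor cells and unedited host cells, and a transcript that both make cannot be assigned to either. Whether the edited cells were clones is not given in the sources used here.

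Macrophages in mammary tumors derive from tissue-resident cells and from blood monocytes that enter the tumor, and they depend on the growth factor receptor encoded by Csf1r and on the transcription factor PU.1, encoded by Spi1. They take up antibody-coated targets through Fc receptors, dying cells through Mertk and its bridging ligand Gas6, and lipids through receptors such as Trem2, which signals through the adaptor Tyrobp. Monocytes with high surface Ly6C lose it as they mature into macrophages within the tissue.

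Total counts ranged from 14753922 to 19595821 for sgCon and from 12185383 to 18395558 for sgTaz. Wwtr1 was at 192, 181, 115, 171 and 156 CPM (counts scaled to library size, with TMM factors) in sgCon tumors 1 to 5 and at 86.6, 104, 109.9, 139 and 102 CPM in sgTaz tumors 1 to 5, a log2 fold change of -0.59 (standard error 0.15, edgeR adjusted p = 0.096, DESeq2 adjusted p = 0.0149, limma-voom adjusted p = 0.028, exact permutation p = 0.0159), with sgTaz tumor 4 above the lowest sgCon tumor. The labels call the material tumor cells, but all but 2 of the macrophage genes passed the filter on low counts. Apoe and Lyz2 were at mean levels of 872 and 730.1 CPM per kb of exon in sgCon tumors. sgTaz tumor 5 stood apart in the marker lists of B cells, T cells and lymph node stroma, in which it lay among the sgCon tumors. In the neutrophil list too it was the only sgTaz tumor inside the sgCon range. Its mean log2 CPM there was 4.52, with 3.75 in sgTaz tumor 4 just below the lowest sgCon value of 3.78. The main counts, the state means and the genes that sgTaz tumor 5 moves most are therefore also given without this tumor. In whole tumors, fewer cells of a type and less RNA per cell cannot be told apart.

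Macrophage genes of nearly every state were at higher levels in sgTaz than in sgCon tumors, but by less than the edgeR test across all genes could separate from the spread between tumors. Of the 41 genes tested, 33 had a log2 fold change above 0 and 8 below 0, against 47% and 53% of all 14816 genes tested. The median log2 fold change was 0.35 over the macrophage genes and -0.02 over all genes. The 8 genes on the lower side were Laptm5, Lyve1, Ctsl, Cd14, Ly6c2, Plac8, Chil3 and Cx3cl1, of which Ly6c2, Plac8 and Chil3 belong to the 5 monocyte-derived genes. Without sgTaz tumor 5, 32 genes were higher and 9 lower, with a median of 0.30.

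None of the 41 genes had an edgeR adjusted p below 0.05, in a table where the same test called 0.00675% of genes as higher and 0% as lower in sgTaz tumors. At an unadjusted edgeR p below 0.05, 13 macrophage genes were higher (background 9.86% of all genes) and 2 were lower (background 11.9%). DESeq2, the test named in the study's methods, gave 6 of 42 genes an adjusted p below 0.05. Adgre1, Mrc1, Siglec1, Pltp and Tlr4 were higher in sgTaz tumors (background 3.38%) and Ly6c2 was lower (background 3.5%). With limma-voom, 8 genes were higher (background 4.63%), namely Adgre1, Cd68, Fcgr2b, Mrc1, Siglec1, Stab1, Pltp and Ctsb, and Ly6c2 was again lower (background 5.8%). Adgre1, Mrc1, Siglec1, Pltp and Ly6c2 thus passed both alternative tests. Without sgTaz tumor 5, DESeq2 called Adgre1 as higher (background 2.73%) and Ly6c2, Lyve1 and Marco as lower (background 4.99%), while Mrc1, Siglec1, Pltp and Tlr4 were no longer called. The DESeq2 log2 fold changes with and without this tumor were 0.84 and 0.77 for Mrc1, 0.69 and 0.59 for Siglec1, 0.86 and 0.78 for Pltp, and 0.49 and 0.47 for Tlr4.

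No macrophage gene separated the groups completely, while 2.44% of all genes lay higher and 2.13% lower in every sgTaz tumor than in every sgCon tumor. Single tumors made up the overlap of several genes. Leaving out sgTaz tumor 2, 6 genes no longer overlapped, namely Adgre1, Cd68, Fcgr3, Siglec1, Pltp and Slc11a1, all higher in sgTaz (background 5.53% higher and 5.15% lower). Leaving out sgCon tumor 2 separated Fcgr2b, Mrc1 and Tlr4, also higher (background 3.26% higher and 3.34% lower). A single gene was separated without sgTaz tumor 1 (Mrc1, higher, background 3.04% higher and 3% lower), without sgCon tumor 1 (Laptm5, lower, background 4.77% higher and 3.36% lower) and without sgTaz tumor 5 (Ly6c2, lower, background 3.33% higher and 4.92% lower). Against these backgrounds, only the 6 of 41 genes without sgTaz tumor 2 and the 3 of 41 without sgCon tumor 2 were a larger share than among all genes.

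**Figure D1:**
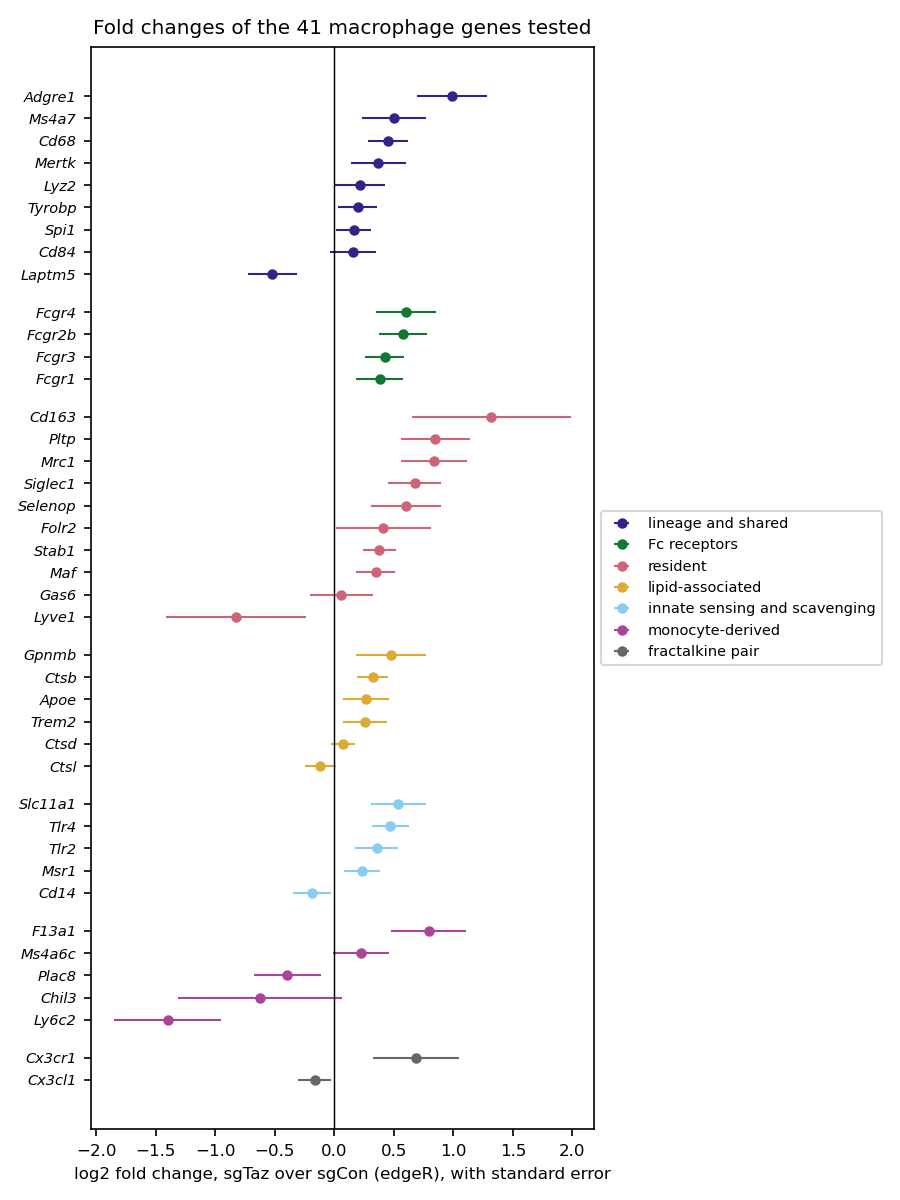
Log2 fold change of sgTaz over sgCon for each of the 41 macrophage genes tested, grouped and colored by state, with the standard error from the edgeR fit (x axis, log2 scale). Most points lie to the right of 0, with Adgre1 at 0.99 and Pltp at 0.85, and the points on the far left are Ly6c2 at -1.40 and Lyve1 at -0.82.

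Certain tumors recurred at the ends of the range. Within the sgCon group, tumor 5 was the lowest in 22 of the 41 macrophage genes (53.7%), against 13.8% of all genes tested. Tumor 1 was the lowest in 10 (24.4%), near its 19.2% of all genes. Within the sgTaz group, tumor 2 was the lowest in 26 genes (63.4%, against 27.8% of all genes). Tumor 5 was the highest in 19 (46.3%, against 22.4%) and tumor 4 in 15 (36.6%, against 16.2%). Over all 10 tumors, sgCon tumor 5 was the lowest in 21 genes (51.2%, against 8.96% of all genes). sgTaz tumor 5 was the highest in 13 (31.7%, against 7.03%) and sgTaz tumor 4 in 10 (24.4%, against 9.39%). The map of all genes by tumor shows these columns.

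**Figure D2:**
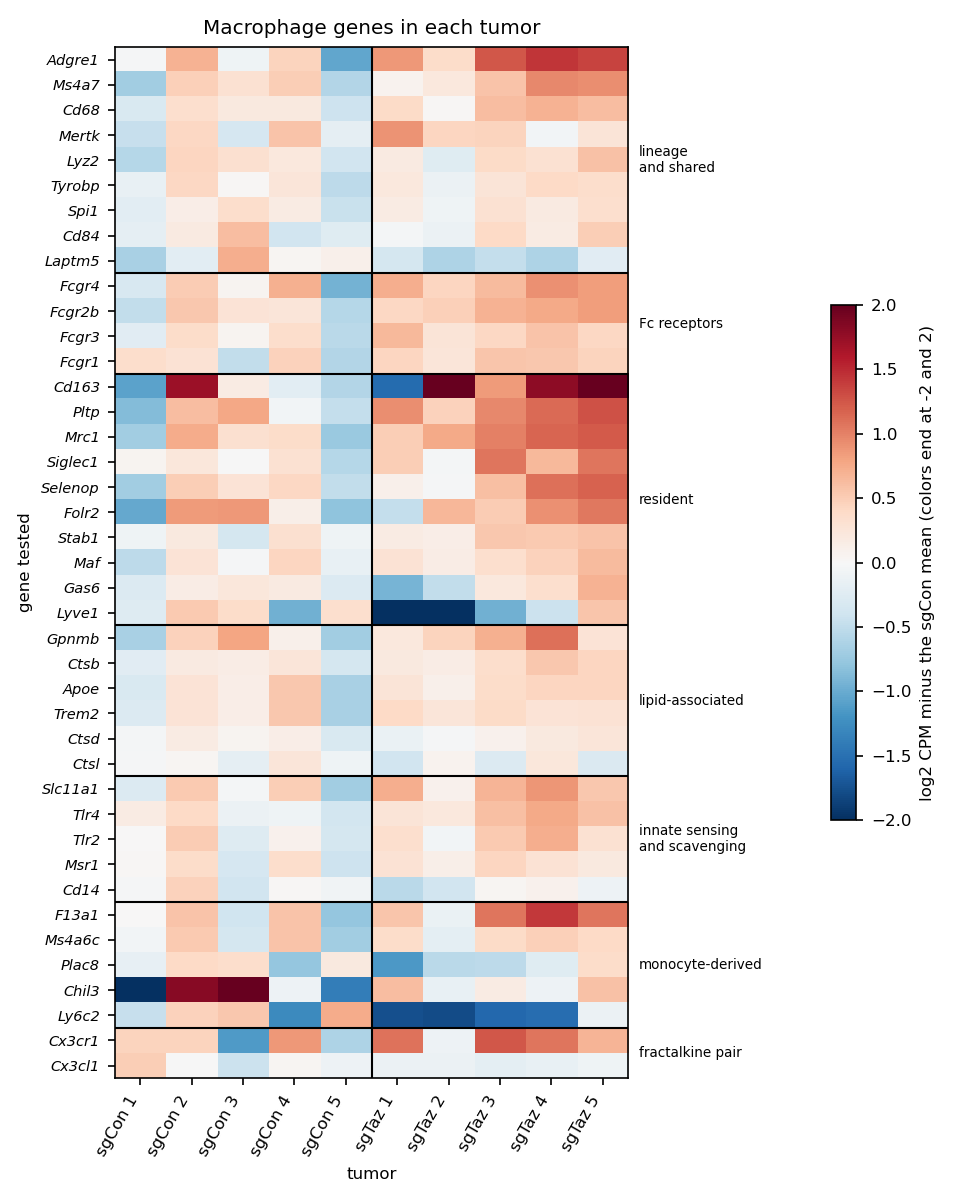
Log2 CPM of each macrophage gene tested in each of the 10 tumors, as the difference from the mean of the 5 sgCon tumors (color scale, log2 units, ending at -2 and 2), with genes grouped by state and ordered by fold change within a state. The columns of sgCon tumor 5, lowest of its group in 22 genes, and of sgTaz tumors 4 and 5, highest of their group in 15 and 19 genes, stand out, as does the blue row of Ly6c2 in sgTaz tumors 1 to 4. Among all genes tested, these tumors were at the same end in 13.8%, 16.2% and 22.4%.

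As a description of each state, the log2 CPM of its genes was averaged in each tumor. The lineage and shared genes had a mean of 6.22 ± 0.36 (SD, n = 5) for sgCon against 6.53 ± 0.21 (SD, n = 5) for sgTaz, which differ by 0.31. The Fc receptors had the largest difference of the 7 groups, 0.56, with values of 5.96, 6.56, 6.10, 6.57 and 5.47 in sgCon tumors 1 to 5 and 6.69, 6.48, 6.71, 6.83 and 6.77 in sgTaz tumors 1 to 5. Here 4 of 5 sgTaz tumors were above every sgCon tumor, and sgTaz tumor 2 lay below the highest 2 sgCon tumors. Resident genes differed by 0.43 (4.81 to 5.93 in sgCon and 4.95 to 6.43 in sgTaz tumors), innate sensing and scavenging genes by 0.30, and lipid-associated genes by 0.24. The monocyte-derived group differed by -0.09, with 4.42 to 5.79 in sgCon and 4.47 to 5.49 in sgTaz tumors, so that the ranges overlapped almost throughout. Without sgTaz tumor 5 the differences were 0.26 for the lineage, 0.54 for the Fc receptor, 0.27 for the resident, 0.25 for the lipid-associated, 0.30 for the innate and -0.23 for the monocyte-derived genes. Leaving out sgCon tumor 5 gave 0.13 for the lipid-associated genes. The monocyte-derived difference changed sign without sgCon tumor 2 (0.10), sgCon tumor 3 (0.02) or sgTaz tumor 2 (0.03).

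Each group was also taken relative to the lineage mean of the same tumor. This is not a pure measure of proportions among macrophages. The lineage mean includes Laptm5 (log2 fold change -0.52), and the monocyte-derived genes include Ly6c2 and Plac8, all expressed by other leukocytes too. What the differences would be without these genes was not tested. By this measure the Fc receptors were higher in sgTaz tumors by 0.25 and the resident genes by 0.11. The resident values overlapped, with -1.05 to -0.61 in sgCon and -1.53 to -0.31 in sgTaz tumors, and sgTaz tumor 1 was below every sgCon tumor. The lipid-associated and innate genes differed by -0.07 and -0.01. The monocyte-derived genes were lower by this measure, with a mean of -1.19 ± 0.35 (SD, n = 5) for sgCon against -1.59 ± 0.20 (SD, n = 5) for sgTaz and 3 of 5 sgTaz tumors below every sgCon tumor.

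**Figure D3:**
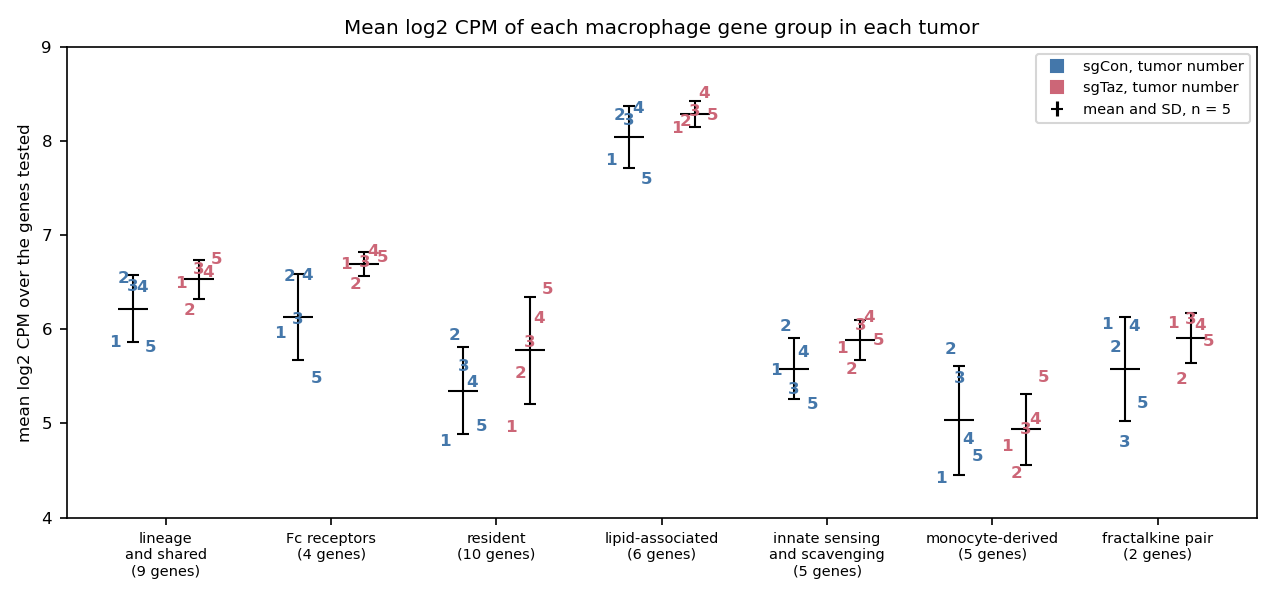
Mean log2 CPM over the genes of each macrophage group (y axis, log2 scale) in each tumor, with sgCon tumors in blue and sgTaz tumors in red, each drawn as its tumor number, and black bars for the group mean and SD (n = 5). For the Fc receptors sgTaz tumors 1, 3, 4 and 5 lie above every sgCon tumor, while the monocyte-derived group overlaps fully (4.42 to 5.79 in sgCon and 4.47 to 5.49 in sgTaz tumors).

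Among the lineage genes, Adgre1, which encodes the macrophage surface marker F4/80 (ENSMUSG00000004730.15, chr17:57358691-57483527, GRCm38, protein-coding), had the largest fold change. Its levels were 40.7, 67.3, 39.2, 56.8 and 20.1 CPM in sgCon tumors 1 to 5 and 75.5, 53.3, 98.5, 112 and 106 CPM in sgTaz tumors 1 to 5. Every sgTaz tumor but tumor 2 was above every sgCon tumor, and sgCon tumor 5 was the lowest of all. The log2 fold change was 0.99 (standard error 0.29, edgeR adjusted p = 0.114, exact permutation p = 0.0238), while DESeq2 gave an adjusted p of 0.0171. Adgre1 remained called by DESeq2 without sgTaz tumor 5, with an adjusted p of 0.0412.

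Cd68, a glycoprotein gene of the endosome and lysosome, was at 44.2, 68.9, 62.9, 62.8 and 41.02 CPM in sgCon and 71.2, 55.7, 83.7, 88.4 and 84.1 CPM in sgTaz tumors. Again 4 of 5 sgTaz tumors exceeded every sgCon tumor, with a log2 fold change of 0.45 (standard error 0.17, edgeR adjusted p = 0.163, exact permutation p = 0.0476). Ms4a7, a four-pass membrane protein gene of mature macrophages, was at 16.8, 37.8, 33.8, 38.5 and 18.1 CPM in sgCon and 28.5, 31.4, 40.3, 53.1 and 52.2 CPM in sgTaz tumors. sgTaz tumors 3 to 5 were above the sgCon range and tumors 1 and 2 within it, and the log2 fold change of 0.50 did not pass the test (edgeR adjusted p = 0.305).

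Tyrobp, the adaptor of Trem2 and of several other myeloid receptors, was at 85.6, 127, 96.5, 113 and 66.2 CPM in sgCon tumors and 111, 87.8, 113, 126 and 121 CPM in sgTaz tumors. The groups overlapped throughout, with a log2 fold change of 0.19 (standard error 0.16, edgeR adjusted p = 0.501, exact permutation p = 0.302). Laptm5, a lysosomal membrane protein gene of macrophages and lymphocytes alike, lay on the other side. It was at 182, 248, 474, 296 and 307 CPM in sgCon and 225, 187, 205, 187 and 245 CPM in sgTaz tumors, with a log2 fold change of -0.52 (standard error 0.21, edgeR adjusted p = 0.183, exact permutation p = 0.0952). sgCon tumor 1 was the lowest of all 10, and sgCon tumors 2 to 5 were above every sgTaz tumor. Of the other lineage genes, Mertk (0.37), Lyz2 (0.22), Spi1 (0.16) and Cd84 (0.16) had log2 fold changes above 0 within their spread. Reads of Lyz2 may have been split with its paralog Lyz1, with which it shares 15.4% of its stretches of 50 bases.

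The 3 low- and intermediate-affinity receptors for IgG lie in a cluster on chromosome 1, and all 4 Fc receptor genes were higher in sgTaz tumors (47% of all genes), 3 of them at an unadjusted edgeR p below 0.05 (9.86% of all genes). Fcgr2b, the inhibitory receptor (chr1:170958617-170976547), was at 145, 296, 244, 241 and 137 CPM in sgCon and 269.7, 282, 328, 343 and 361 CPM in sgTaz tumors. Only sgCon tumor 2 reached into the sgTaz range, and the log2 fold change was 0.57 (standard error 0.20, edgeR adjusted p = 0.15, exact permutation p = 0.0238). With limma-voom its adjusted p was 0.0497.

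Fcgr3 (chr1:171051174-171064935), an activating receptor, was at 31.8, 48.5, 38.7, 47.6 and 25.6 CPM in sgCon tumors and 58.6, 44.5, 49.7, 55.3 and 49.9 CPM in sgTaz tumors. sgTaz tumor 2 was the one sgTaz tumor inside the sgCon range, and the log2 fold change was 0.42 (standard error 0.17, edgeR adjusted p = 0.178, exact permutation p = 0.0397). Fcgr4 (chr1:171018920-171029761), an activating receptor of intermediate affinity, was at 52.8, 93.8, 68.7, 108 and 34.3 CPM and 109, 88.5, 102, 125 and 118 CPM in the same order. sgTaz tumors 1, 4 and 5 were above every sgCon tumor, the sgCon group being spread from 34.3 to 108 CPM, and the log2 fold change was 0.60 (standard error 0.25, edgeR adjusted p = 0.201, exact permutation p = 0.0476). Fcgr1, the high-affinity receptor, was at 31.98 to 66.1 CPM in sgCon and 56.9 to 70.7 CPM in sgTaz tumors, with a log2 fold change of 0.38. Activating and inhibitory receptors thus lay on the same side, with fold changes between 0.38 and 0.60. Fcgr3 and Fcgr2b share sequence (9.58% of the 50-base stretches of Fcgr3 occur also in Fcgr2b), so that their reads may have been split unevenly.

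Among the resident genes, 9 of the 10 tested were higher in sgTaz tumors and the median log2 fold change was 0.51. Mrc1, which encodes the mannose receptor CD206 (chr2:14229392-14332057, plus strand), was at 107, 289.6, 215, 223 and 104 CPM in sgCon tumors 1 to 5 and 244, 292, 345, 387 and 403 CPM in sgTaz tumors 1 to 5. sgCon tumor 2 was level with sgTaz tumor 2, and sgTaz tumor 1 was the only sgTaz tumor below it. The means were 188 ± 80.7 CPM (SD, n = 5) for sgCon against 334 ± 66.3 CPM (SD, n = 5) for sgTaz, 1.78-fold higher in sgTaz, with a log2 fold change of 0.83 (standard error 0.28, edgeR adjusted p = 0.136, exact permutation p = 0.0159) and a DESeq2 adjusted p of 0.0362.

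Siglec1, the sialic acid receptor CD169 of sinus and resident macrophages (chr2:131069220-131086765), was at 16.6, 18.8, 16.03, 19.8 and 10.8 CPM in sgCon and 22.5, 15.6, 33.8, 25.3 and 33.9 CPM in sgTaz tumors. sgTaz tumor 2 was the only sgTaz tumor inside the sgCon range. The log2 fold change was 0.68 (standard error 0.22, edgeR adjusted p = 0.134, exact permutation p = 0.0476), and the DESeq2 adjusted p was 0.0462. Pltp, which encodes the phospholipid transfer protein (chr2:164839518-164857711, minus strand), was at 18.1, 50.8, 56.6, 31.6 and 23.6 CPM in sgCon and 63.2, 45.3, 64.5, 72.8 and 80.04 CPM in sgTaz tumors. sgCon tumors 2 and 3 and sgTaz tumor 2 overlapped, while sgCon tumors 1, 4 and 5 were the lowest of all. Its log2 fold change was 0.85 (standard error 0.29, edgeR adjusted p = 0.142, exact permutation p = 0.0317), with a DESeq2 adjusted p of 0.0436. On the opposite strand Pltp overlaps Ctsa, with which it shares 10.8% of its stretches of 50 bases, and the strand setting of the counting is not stated.

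Stab1, the scavenger receptor stabilin-1, was at 135, 164, 111, 179 and 135 CPM in sgCon and 159.6, 157, 209, 205 and 211 CPM in sgTaz tumors. sgTaz tumors 3 to 5 lay above the sgCon range, and the log2 fold change was 0.38 (standard error 0.14, edgeR adjusted p = 0.16, exact permutation p = 0.0476). Cd163, the receptor for hemoglobin and haptoglobin, had the highest positive log2 fold change of the set in the edgeR fit, 1.32 (1.01 without sgTaz tumor 5 and 0.89 with limma-voom), but ranged over 7.69 to 53.6 CPM in sgCon and 5.54 to 93.2 CPM in sgTaz tumors (standard error 0.67, edgeR adjusted p = 0.275). sgTaz tumor 1 was the lowest of all 10 tumors for Cd163. Log2 fold changes of 0.60 for Selenop, a selenium carrier (0.44 without sgTaz tumor 5), 0.41 for Folr2, a folate receptor, 0.35 for the transcription factor Maf and 0.06 for Gas6 did not pass the test either.

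Lyve1, a hyaluronan receptor of perivascular macrophages and of lymphatic endothelium, was the one resident gene on the lower side among the 10 tested. Vsig4, a complement receptor gene below the filter, had a DESeq2 log2 fold change of -0.78 with a standard error of 0.81. Lyve1 ranged over 4.61 to 13.1 CPM in sgCon and 0.700 to 13.5 CPM in sgTaz tumors, with sgTaz tumors 1 and 2 below every sgCon tumor and sgTaz tumor 5 the highest of all. Its log2 fold change was -0.82 (standard error 0.59, edgeR adjusted p = 0.429) with all tumors and -1.47 without sgTaz tumor 5, where DESeq2 gave an adjusted p of 0.0492. The summed markers of lymphatic endothelium were 22.7 to 31.7 CPM in sgCon and 13.9 to 36.8 CPM in sgTaz tumors. Among them, edgeR log2 fold changes were -1.99 for Reln, -0.85 for Prox1 and -0.37 for Mmrn1, and 0.16 for Flt4 and 0.06 for Pdpn. The part of these markers in the Lyve1 result was not tested.

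**Figure D4:**
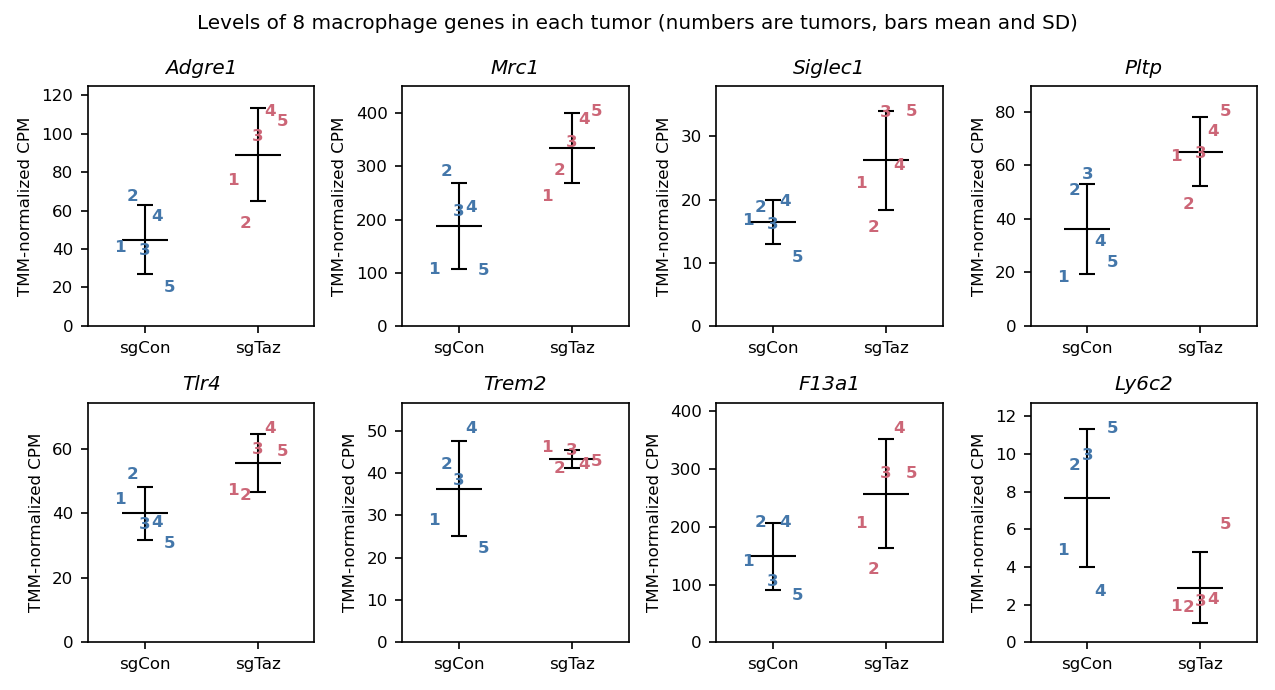
TMM-normalized CPM (y axes starting at 0) of 8 macrophage genes in the sgCon (blue) and sgTaz (red) tumors, each drawn as its tumor number, with black bars for mean and SD (n = 5). Adgre1, Mrc1, Siglec1 and Pltp each have 4 sgTaz tumors above all sgCon tumors, while for Ly6c2 sgTaz tumors 1 to 4 lie at about 2 CPM and sgTaz tumor 5 lies among the sgCon tumors.

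Lipid-associated genes had the smallest positive difference in the state means. Trem2, the lipid-sensing receptor that defines these macrophages, was at 28.8, 42.1, 38.2, 50.6 and 22.1 CPM in sgCon and 45.95, 41.2, 45.3, 42 and 42.6 CPM in sgTaz tumors. The sgTaz tumors were close together, between 41.2 and 45.95 CPM, and all lay inside the sgCon range of 22.1 to 50.6 CPM. The log2 fold change was 0.25 (standard error 0.18, edgeR adjusted p = 0.434, exact permutation p = 0.254). Apoe, the apolipoprotein that Trem2 binds, was the most abundant gene of the set per kb and was at 1455, 2172, 1963, 2592 and 1139 CPM in sgCon and 2132, 1923, 2310.0, 2417 and 2409 CPM in sgTaz tumors, also within the sgCon range, with a log2 fold change of 0.26 (standard error 0.19, edgeR adjusted p = 0.436, exact permutation p = 0.23).

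Gpnmb, a membrane glycoprotein gene of lipid-laden and lysosome-stressed macrophages, was at 7.75, 16.8, 21.1, 13.2 and 7.53 CPM in sgCon and 14.2, 16.8, 20.1, 26.5 and 14.8 CPM in sgTaz tumors. Only sgTaz tumor 4 was above the sgCon range, and the log2 fold change was 0.47 (standard error 0.29, edgeR adjusted p = 0.366). Among the lysosomal cathepsins, Ctsb had the clearest difference, at 1019, 1352, 1319, 1411 and 935 CPM in sgCon and 1366, 1318, 1519.6, 1735 and 1609 CPM in sgTaz tumors. sgTaz tumors 3 to 5 were above every sgCon tumor, and the log2 fold change of 0.32 (standard error 0.13, edgeR adjusted p = 0.19, exact permutation p = 0.0556) passed the test with limma-voom (adjusted p = 0.0466). Ctsd and Ctsl had log2 fold changes of 0.07 and -0.12. Tumor cells express cathepsins too, and other genes share 12.1% of the 50-base stretches of Ctsb, 32.4% of Ctsd and 26.3% of Ctsl.

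Of the pattern recognition genes, Tlr4, the receptor for bacterial lipopolysaccharide (chr4:66827584-66930284), was at 44.2, 52.1, 36.5, 37.1 and 30.6 CPM in sgCon and 47.1, 45.5, 59.9, 66.4 and 59.2 CPM in sgTaz tumors. sgTaz tumors 3 to 5 were above every sgCon tumor, and the log2 fold change was 0.47 (standard error 0.15, edgeR adjusted p = 0.129, exact permutation p = 0.0317), with a DESeq2 adjusted p of 0.0491. Slc11a1, a metal ion transporter of the phagosome, was at 17.1, 29.5, 19.96, 29.1 and 12.6 CPM in sgCon and 34.2, 21.96, 32.9, 38.2 and 30.05 CPM in sgTaz tumors. sgTaz tumor 2 was the only one inside the sgCon range, and the log2 fold change was 0.54 (standard error 0.23, edgeR adjusted p = 0.206, exact permutation p = 0.0556).

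Tlr2, the receptor for bacterial lipopeptides, was at 39.03, 55.01, 32.4, 41.02 and 30.1 CPM in sgCon and 48.6, 37.3, 55.6, 63.7 and 47.7 CPM in sgTaz tumors, with overlapping groups and a log2 fold change of 0.35 (standard error 0.18, edgeR adjusted p = 0.267, exact permutation p = 0.111). Msr1, a scavenger receptor, had a log2 fold change of 0.23, and Cd14, the coreceptor of Tlr4, one of -0.19. Cd14 and Tlr4 thus lay on opposite sides, although the difference between them was not tested. Marco, which is below the filter, had 52 counts in sgTaz tumor 5 and between 0 and 1 in the other sgTaz tumors, against 0 to 31 in sgCon tumors. Its DESeq2 log2 fold change was 0.25 (adjusted p = 0.963) with all tumors and -5.02 (adjusted p = 0.0338) without sgTaz tumor 5. The sign thus changed with sgTaz tumor 5 left out, and sgCon tumors 1 and 4 had 0 and 1 counts, like the low sgTaz tumors. With so few counts the fit without sgTaz tumor 5 depends on the model and gives neither a direction nor a size.

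The monocyte-derived genes lay on both sides of 0. Ly6c2, one of the genes of the monocyte surface antigen Ly6C (ENSMUSG00000022584.14, chr15:75108158-75111970, minus strand), was at 4.86, 9.41, 9.92, 2.72 and 11.4 CPM in sgCon tumors 1 to 5 and 1.91, 1.87, 2.20, 2.27 and 6.26 CPM in sgTaz tumors 1 to 5. sgTaz tumors 1 to 4 were below every sgCon tumor, and sgTaz tumor 5 was above sgCon tumors 1 and 4. Counts were low, at 28 to 41 in sgTaz tumors 1 to 4 and 49 in sgCon tumor 4. The means were 7.66 ± 3.68 CPM (SD, n = 5) for sgCon against 2.90 ± 1.88 CPM (SD, n = 5) for sgTaz, and the log2 fold change was -1.40 (standard error 0.45, edgeR adjusted p = 0.127, exact permutation p = 0.0397). DESeq2 gave an adjusted p of 0.0287 and limma-voom one of 0.0363. Without sgTaz tumor 5 the edgeR log2 fold change was -1.89 (adjusted p = 0.0512). The neighboring paralog Ly6c1 is expressed by endothelium, and 14.5% of the 50-base stretches of Ly6c2 occur in other genes, mostly in Ly6c1.

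F13a1, which encodes the A subunit of coagulation factor XIII and marks monocytes and monocyte-derived macrophages, lay on the other side. It was at 140.0, 207, 106, 208 and 81.8 CPM in sgCon and 205, 127, 292, 370.1 and 292 CPM in sgTaz tumors, with sgTaz tumors 3 to 5 above the sgCon range and a log2 fold change of 0.79 (standard error 0.31, edgeR adjusted p = 0.18, exact permutation p = 0.0873). F13a1 and Ly6c2 had the highest and the lowest fold change of the monocyte-derived genes. A difference between them thus restates those fold changes and adds no separate result. Within the same tumor, log2 CPM of F13a1 exceeded that of Ly6c2 by 4.34 ± 1.30 (SD, n = 5) for sgCon against 6.48 ± 0.72 (SD, n = 5) for sgTaz. sgTaz tumors 1, 3 and 4 were above every sgCon tumor in this difference, and sgTaz tumor 5, at 5.52, was the lowest of its group.

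Plac8, a small cysteine-rich protein gene of monocytes and other leukocytes, was at 36.1, 53.4, 51.7, 23.5 and 46.4 CPM in sgCon and 18.2, 27.7, 28.2, 34.3 and 52.4 CPM in sgTaz tumors. Only sgTaz tumor 1 was below the sgCon range, and the log2 fold change was -0.39 (standard error 0.28, edgeR adjusted p = 0.425, exact permutation p = 0.246). Ms4a6c, a four-pass membrane protein gene of monocytes and macrophages, was at 73.3, 109, 59.3, 112 and 46.8 CPM in sgCon and 97.95, 66.2, 99.3, 106 and 99.7 CPM in sgTaz tumors. All sgTaz tumors were inside the sgCon range, and the log2 fold change was 0.22 (standard error 0.23, edgeR adjusted p = 0.603, exact permutation p = 0.365), uncertain also because 51.4% of its 50-base stretches occur in other genes. Chil3, the chitinase-like protein Ym1, ranged over 2.28 to 52.96 CPM in sgCon tumors and 11.4 to 19.3 CPM in sgTaz tumors, with a log2 fold change of -0.63 (standard error 0.69, edgeR adjusted p = 0.627) that turned to 0.06 with limma-voom and to 0.11 with the replicate number as a block.

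The chemokine Cx3cl1 is made mainly by epithelium and endothelium, and its receptor Cx3cr1 by monocytes and macrophages. Cx3cl1 was at 100.3, 71.3, 53.1, 73.4 and 66.3 CPM in sgCon and 65.7, 65.6, 62.1, 64.3 and 67.2 CPM in sgTaz tumors. The sgTaz tumors lay within 62.1 to 67.2 CPM, inside the wider sgCon range, and the log2 fold change was -0.17 (standard error 0.14, edgeR adjusted p = 0.5, exact permutation p = 0.484). Cx3cr1 was at 43.7, 43.5, 14.5, 58.01 and 20.7 CPM in sgCon and 67.7, 29.6, 75.4, 67.2 and 50.9 CPM in sgTaz tumors. Its groups overlapped, with 3 sgTaz tumors above the sgCon range, and the log2 fold change was 0.69 (standard error 0.36, edgeR adjusted p = 0.289, exact permutation p = 0.127).

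The region upstream of the start site was available for 33 of the 43 genes, in 43 windows of 250 bases from RefSeq (GRCm38.p6). The core of the PU.1 binding site, GAGGAA or its reverse complement TTCCTC, was present in 22 of these 43 windows (51.2%), which belong to 18 genes, against 23.3% of 32851 windows of all genes. Windows of a gene can overlap, as those of Ly6c2 do, so that the same site can count more than once. A share by gene was not computed over all genes. The E-box CACGTG was present in 4.65% of these windows (Ctsd and Ctsl) against 6.02% of all windows, and the Maf half-site TGCTGAC, searched on both strands, in 4.65% against 3.81%. Windows were on hand for 3 of the 6 genes that DESeq2 called, Mrc1, Pltp and Ly6c2. One window of each is shown, 5′ to 3′ on the strand of the gene and up to the base before the RefSeq start used, because Mrc1 and Pltp were resident genes and Ly6c2 the monocyte gene with such a call. The RefSeq starts of Mrc1 and Pltp lie slightly downstream of the GENCODE gene starts given above, so the windows reach into those gene models. Capitals mark the PU.1 core on either strand. A match shows that the letters are there and not that the factor binds.

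Mrc1, chr2:14229164-14229413, plus strand: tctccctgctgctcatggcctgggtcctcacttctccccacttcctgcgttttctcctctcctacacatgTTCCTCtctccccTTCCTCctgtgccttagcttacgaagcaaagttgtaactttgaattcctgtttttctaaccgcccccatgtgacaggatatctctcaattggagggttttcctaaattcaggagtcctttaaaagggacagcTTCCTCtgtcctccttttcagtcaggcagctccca

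Pltp, chr2:164857709-164857958, minus strand: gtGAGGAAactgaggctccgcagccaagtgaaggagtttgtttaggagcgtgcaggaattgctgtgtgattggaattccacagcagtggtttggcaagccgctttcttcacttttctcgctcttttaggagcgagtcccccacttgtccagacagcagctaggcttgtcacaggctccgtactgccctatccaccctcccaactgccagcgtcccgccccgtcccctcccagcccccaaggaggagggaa

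Ly6c2, chr15:75111972-75112221, minus strand: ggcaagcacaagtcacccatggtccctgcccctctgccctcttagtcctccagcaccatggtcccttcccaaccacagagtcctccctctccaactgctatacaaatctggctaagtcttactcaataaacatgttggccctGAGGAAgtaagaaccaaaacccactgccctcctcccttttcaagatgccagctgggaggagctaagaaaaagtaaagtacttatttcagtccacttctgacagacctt

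Mrc1 had 3 matches, while Pltp and this Ly6c2 window had 1 each, so that genes of both directions held the motif. A second, overlapping Ly6c2 window with a start farther downstream, not shown, had 2 matches.

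Of 46 other macrophage genes that were looked up by name, 45 passed the filter, with a median log2 fold change of 0.24 and 32 higher and 13 lower. These genes too were listed with earlier results of these data known. None had an edgeR adjusted p below 0.05, while 13 were higher (9.86% of all genes) and 2 lower (11.9%) at an unadjusted p below 0.05. DESeq2 called 4 as higher, Csf1r, Zeb2 and Itgax among them (3.38% of all genes), and 1 as lower (3.5%), and limma-voom called 6 as higher (4.63%) and 3 as lower (5.8%). Csf1r, the receptor of the macrophage growth factors, was at 187, 234, 201, 223 and 129 CPM in sgCon and 294, 208, 332, 369 and 325 CPM in sgTaz tumors, with a log2 fold change of 0.65 (standard error 0.18, edgeR adjusted p = 0.101, exact permutation p = 0.0238) and a DESeq2 adjusted p of 0.0157. sgTaz tumor 2 was the only sgTaz tumor inside the sgCon range.

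The transcription factor gene Zeb2, which maintains macrophage identity, was at 86.5, 111, 90.3, 89.7 and 77.5 CPM in sgCon and 128, 104, 157, 170.4 and 147 CPM in sgTaz tumors, with a log2 fold change of 0.63 (standard error 0.13, edgeR adjusted p = 0.0874, exact permutation p = 0.0159) and a DESeq2 adjusted p of 0.00207. The protease gene Ctss and Itgax, which encodes CD11c and is shared with dendritic cells, were higher in every sgTaz tumor than in every sgCon tumor. So were 2.44% of all genes tested, while 2.13% were lower in every sgTaz tumor. Ctss ranged over 303 to 683 CPM in sgCon and 713 to 830.5 CPM in sgTaz tumors, and Itgax over 37.4 to 69.1 and 69.7 to 98.7 CPM. For both the exact permutation p was 0.00794, the smallest that 5 against 5 tumors allow and the value of every gene without overlap. The complement gene C1qc (log2 fold change 0.49) and the lysosomal genes Lipa (0.33) and Grn (0.26) lay on the same side without passing the edgeR or the DESeq2 test.

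Other monocyte genes also lay on both sides of 0. Ccr2, the chemokine receptor by which monocytes leave the marrow, had a log2 fold change of 0.64 (edgeR adjusted p = 0.142), and Ifitm6, an interferon-induced membrane protein gene, one of -0.95 (edgeR adjusted p = 0.325). Among genes of polarization, Retnla ranged over 0.120 to 7.81 CPM in sgCon and 3.16 to 31.4 CPM in sgTaz tumors (log2 fold change 2.44), Arg1 had a log2 fold change of 0.49, and Nos2 one of -0.19, none past the edgeR or the DESeq2 test. Among resident genes, log2 fold changes were 0.63 for the chemokine Ccl24, -0.40 for heme oxygenase Hmox1, which passed only with limma-voom (adjusted p = 0.0296), and -0.99 for Timd4.

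Markers of other cell types differed between the groups as well. All 9 neutrophil, 8 B cell, 6 T cell and 6 epithelial genes, and the 4 lymph node stroma genes tested of 6, had log2 fold changes below 0. Summed levels of the neutrophil list were 217 to 821 CPM in sgCon and 79.4 to 319 CPM in sgTaz tumors, those of the B cell list 64.6 to 875 CPM in sgCon and 0.955 to 201 CPM in sgTaz tumors, and those of the T cell list 75.99 to 564 CPM in sgCon and 50.7 to 151 CPM in sgTaz tumors. The lymph node stroma list summed to 35.2 to 699.9 CPM in sgCon and 1.55 to 349.8 CPM in sgTaz tumors, and the highest sgTaz value of all 4 lists was that of tumor 5. Of the lymph node stroma markers, Glycam1 had no count in 3 tumors, Chst4 in 4, Ccl19 in 2 and Madcam1 in 1. Of the B cell markers, Cr2 and Fcer2a had none in 2 tumors each, and Ms4a1 and Blk in 1 each. Epithelial genes summed to 1870.0 to 4163 CPM in sgCon and 1447 to 3235 CPM in sgTaz tumors, and those of dendritic cells to 34.4 to 177 CPM in sgCon and 28.5 to 98.01 CPM in sgTaz tumors. The dendritic cell genes lay on both sides of 0. Zbtb46 (0.19), Clec9a (0.67) and Cd209a (1.06) had log2 fold changes above 0, and Flt3 (-0.39), Xcr1 (-0.30), Siglech (-0.13) and Ccr7 (-1.75) below 0. Laptm5, Plac8 and Ly6c2 are also expressed by lymphocytes or neutrophils. Most macrophage genes lay on the opposite side from the neutrophil, B cell, T cell, lymph node stroma and epithelial genes, and Ly6c2, Laptm5 and Plac8 on the same side. The part of the stroma markers was examined only through the covariate that follows, and that of the other lists was not tested.

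With the mean log2 CPM of the lymph node stroma markers as a covariate in the edgeR fit, most macrophage genes were on the higher side. Then 36 of the 41 macrophage genes were higher (49.4% of all genes) and 5 lower (50.6%), 10 were higher at an unadjusted p below 0.05 (background 5.29%) and 0 lower (background 5.75%), and none had an edgeR adjusted p below 0.05. All 10 resident genes tested were higher, Lyve1 having changed side, with a median log2 fold change of 0.89 against 0.51 without the covariate. Pltp was at 1.31, Mrc1 at 1.02 and Adgre1 at 1.06. Ly6c2 was at -0.20 in place of -1.40, Laptm5 at -0.15 in place of -0.52, and Plac8 and Chil3, like Lyve1, had a log2 fold change above 0. In this score 4 of 5 sgTaz tumors lay below every sgCon tumor, so that the covariate and the group overlap strongly, and the fit rests on sgTaz tumor 5 and on the spread within groups.

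**Figure D5:**
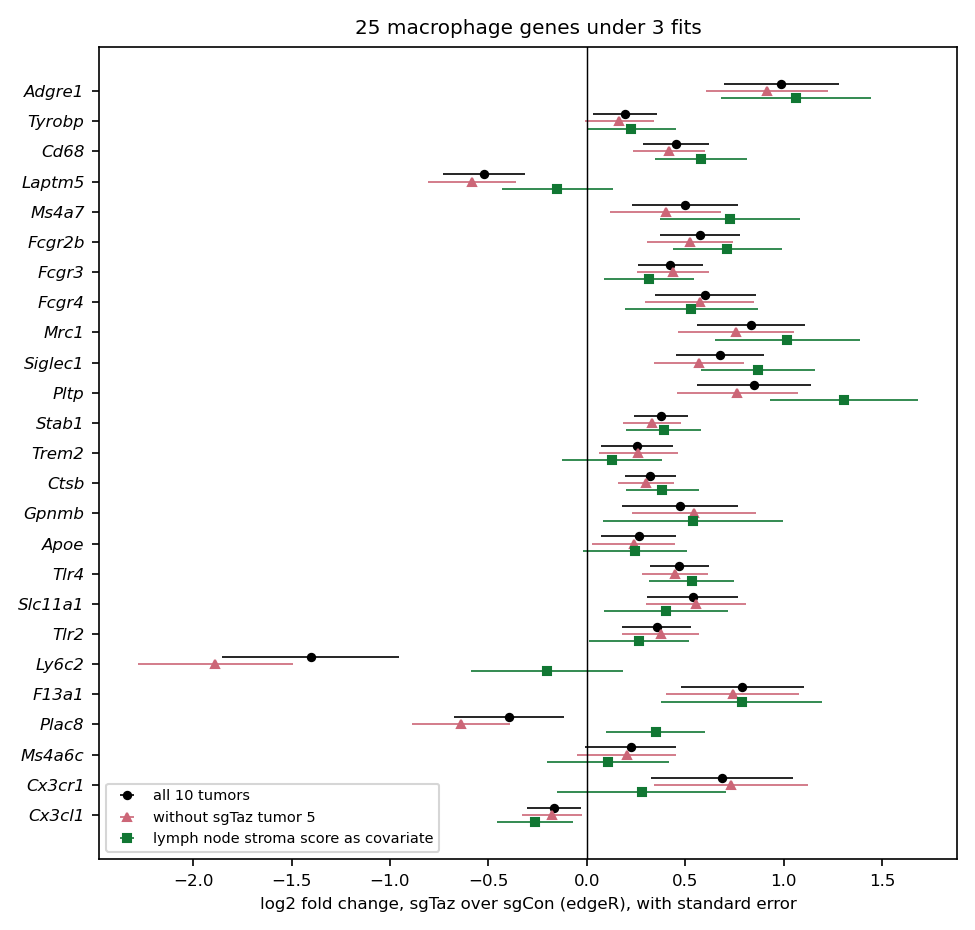
Log2 fold change of sgTaz over sgCon with standard error (x axis, log2 scale, edgeR) for 25 macrophage genes in 3 fits: all 10 tumors (black circles), without sgTaz tumor 5 (red triangles), and with the stroma score added to the model (green squares). Ly6c2 is at -1.40, -1.89 and -0.20 in the 3 fits and Plac8 changes side, while Adgre1, Mrc1, Siglec1 and Pltp stay above 0.5 in each.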

How the data were processed

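RNA of whole 4T1 tumors, 5 sgCon and 5 sgTaz, was sequenced. Per the labels and methods, the authors aligned reads to mm10 (GRCm38) with STAR in 2 passes and counted them per gene with featureCounts of Subread. Tool versions and the strand setting are not given in the sources used here. The deposited values are whole-number counts for 17864 genes without normalization, and 5 further columns of the table were not used. Groups came from the sample labels and column names. Replicate numbers 1 to 5 recur in both groups, and the labels do not say that they pair tumors. Nothing in the labels ties the tumors to separate mice, and p-values measure the spread between these samples.

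Identifiers were matched to GENCODE M21 (17860 of 17864). The 43 genes, their states and the other lists were chosen with earlier results of these data known. The main test was the quasi-likelihood test of edgeR 4.0.16 in R 4.3.3 (TMM, filterByExpr by group, Benjamini-Hochberg adjusted p below 0.05 over 14816 genes). DESeq2 1.42.0, limma-voom (limma 3.58.1, sample quality weights), 2 other normalizations, no filter, at least 10 counts in every tumor, each tumor left out, the replicate number as a block and a lymph node stroma covariate were alternatives. DESeq2 without sgTaz tumor 5 was added after seeing the data. Log2 CPM used a prior count of 2. Exact permutation p-values are two-sided over 252 splits of the 10 tumors, 1 test per gene, and are not adjusted. The test scripts were checked on simulated data. Python 3.11.15, numpy 2.4.6 and pandas 2.3.3 were used for summaries. Values for every tumor are given for 7 genes listed by name and, in each state, for up to 3 further genes with the lowest unadjusted edgeR p. Of the other macrophage genes up to 3 per list are named by the same p, and some of them are not reported here. Shared 50-base stretches were counted among GENCODE M21 transcripts.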

Additional observations from a re-analysis of the deposited data

Results flagged for a closer look

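In 2 of 96 groups of 5 tumors examined, a tumor lay far from the other 4 of its group, where chance gives 4.8. Log2 CPM of Ly6c2 was 2.67 in sgTaz tumor 5 and between 1.00 and 1.26 in the other sgTaz tumors. Log2 CPM of Ms4a6c was 6.05 in sgTaz tumor 2 and between 6.62 and 6.73 in the other sgTaz tumors. In both tumors other genes of the set lay at the same end. sgTaz tumor 5 was the highest of its group in 19 of the 41 genes (22.4% of all genes tested). sgTaz tumor 2 was the lowest in 26 (27.8% of all genes tested).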

How the results depend on the processing

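Across the table edgeR called 1 gene, DESeq2 1081 and limma-voom 1546. edgeR called 0 genes without a filter, 5 with at least 10 counts in every tumor, 0 with the lymph node stroma covariate and 0 with the replicate block. With 1 tumor left out it called between 0 and 172, with 172 without sgTaz tumor 5 and 75 without sgTaz tumor 2. Of the macrophage genes, edgeR called 0, DESeq2 6, limma-voom 9, and DESeq2 without sgTaz tumor 5 4 (Adgre1 higher, and Ly6c2, Lyve1 and Marco lower, background 2.73% higher and 4.99% lower). In the 10 fits that left out 1 tumor, edgeR called 0 to 0 (8 to 21 at an unadjusted p below 0.05). Of the other macrophage genes, edgeR called 0, DESeq2 5, limma-voom 9, and edgeR 0 to 1 with 1 tumor left out (1 without sgTaz tumor 2, which was Zeb2, and 1 without sgTaz tumor 5). Macrophage genes without overlap numbered 0 with all tumors and 0 to 6 with 1 left out. The largest numbers came without sgTaz tumor 2 (6) and sgCon tumor 2 (3), and 1 each without sgTaz tumor 1 (Mrc1), sgCon tumor 1 (Laptm5) and sgTaz tumor 5 (Ly6c2). The lipid-associated difference in level was 0.24 by the mean of its genes and -0.028 by their median. With the covariate, Plac8 was at 0.35 in place of -0.39. The cause of these changes was not tested. The sign of the edgeR log2 fold change held with every tumor left out in 40 of the 41 genes, Gas6 being the exception.

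The correlation of deviations from the group mean between tumors of the same number was -0.15, -0.24, -0.05, 0.09 and 0.22 for numbers 1 to 5. No pairing by number was seen in these values, which cannot exclude one that leaves little trace in expression. With the replicate number as a block, edgeR called 0 macrophage genes (19 at an unadjusted p below 0.05, against 15 without it) and 0 genes in all (2462 against 3226).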

Other observations

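Host tissues other than leukocytes also varied between tumors. The summed levels of adipocyte genes were 50.9 to 93.7 CPM in sgCon and 35.3 to 176 CPM in sgTaz tumors, with mean log2 CPM of 0.52, -0.12, 4.04, 4.23 and 4.35 in sgTaz tumors 1 to 5 against 0.98 to 2.95 in sgCon tumors, so that sgTaz tumors 3 to 5 were above and sgTaz tumors 1 and 2 below every sgCon tumor. Blood endothelial genes had mean log2 CPM of 5.24 to 5.80 in sgCon and 5.24, 5.11, 5.86, 6.14 and 6.08 in sgTaz tumors 1 to 5, with tumors 3 to 5 again above the sgCon range, tumor 2 below it and tumor 1 level with its lower end. Fibroblast genes averaged 7.53 ± 0.29 (SD, n = 5) for sgCon against 7.56 ± 0.45 (SD, n = 5) for sgTaz. sgTaz tumors 3 to 5 were also those in which Ms4a7, Fcgr2b, Stab1, Selenop, Ctsb, Tlr4 and F13a1 were above the sgCon range. Whether host tissue other than macrophages had a part in these levels was not tested.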
